A study of Homo sapiens with 8 samples.

Results

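The genes described here are 10 targets commonly linked to the transcription factor ATF4 that move amino acids into the cell or make them. They were picked by symbol, with no threshold on their values, although earlier results of these data were known when the list was drawn up. They are the 7 transporter genes SLC7A11, SLC7A5, SLC3A2, SLC7A1, SLC1A4, SLC1A5 and SLC38A2 and the 3 enzyme genes ASNS, PYCR1 and ALDH18A1. All 10 were measured, among 18417 genes in all, and 0 of them were dim (mean log2 signal in the lowest 30% of genes, below 6.14). RNA came from U2OS, an established human osteosarcoma cell line, grown in DMEM with serum. Cells were transfected with 10 nM of siRNA against CDK9 (CDK9 siRNA group, 4 arrays) or with a non-targeting siRNA (control group, 4 arrays), and both groups were collected after 72 h and hybridised to Affymetrix human gene arrays. The labels name no other allele or agent and do not say how many siRNA sequences were used, so an effect of CDK9 loss and an effect of these siRNA sequences cannot be told apart. RNA was measured 72 h after transfection and no protein, amino acid or transport rate was measured.

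ATF4 is a transcription factor whose mRNA is translated more when kinases of the integrated stress response phosphorylate the initiation factor eIF2, for example when amino acids run short. It binds composite sites shared with C/EBP proteins and switches on genes for amino acid uptake, amino acid synthesis and tRNA charging. Because much of this control acts on translation, ATF4 mRNA need not follow ATF4 protein. CDK9 is the kinase that lets RNA polymerase II pass from its pause near the start of a gene into productive transcription.

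The windows before the start sites of these genes are shown first, because the ATF4 site is the feature that gives the group its name. RefSeq (GRCh38.p14) gave 14 start sites for 8 of the 10 genes. SLC7A11 and PYCR1 had no entry. The 250 bases before each start were searched on both strands for the C/EBP-ATF response element TGATGNAA, the antioxidant response element TGACNNNGC bound by NRF2, and the E-box CACGTG bound by MYC and its relatives. Capitals mark the matches in the lines below, which read 5′ to 3′ on the gene's strand. ASNS (chr7:97872409-97872658, minus strand) is shown for its response element, SLC7A1 (chr13:29595689-29595938, minus strand) as a gene that rose, and SLC7A5 (chr16:87869508-87869757, minus strand) as one that did not pass the test.
ASNS: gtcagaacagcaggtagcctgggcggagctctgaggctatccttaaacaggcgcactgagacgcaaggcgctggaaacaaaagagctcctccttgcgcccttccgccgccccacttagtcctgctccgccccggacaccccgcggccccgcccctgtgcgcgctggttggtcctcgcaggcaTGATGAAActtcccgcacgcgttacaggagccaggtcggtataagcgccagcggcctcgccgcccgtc
SLC7A1: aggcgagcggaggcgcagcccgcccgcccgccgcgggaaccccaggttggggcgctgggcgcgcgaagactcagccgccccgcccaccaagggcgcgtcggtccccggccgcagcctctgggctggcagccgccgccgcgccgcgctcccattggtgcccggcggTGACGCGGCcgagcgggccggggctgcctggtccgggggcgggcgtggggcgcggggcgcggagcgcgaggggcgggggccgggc
SLC7A5: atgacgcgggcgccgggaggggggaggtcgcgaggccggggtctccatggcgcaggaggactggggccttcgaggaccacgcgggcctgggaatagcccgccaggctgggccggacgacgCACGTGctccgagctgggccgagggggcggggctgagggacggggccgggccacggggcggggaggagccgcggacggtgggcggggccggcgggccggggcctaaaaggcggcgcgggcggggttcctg

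The response element of ASNS lay 68 to 61 bases before its upstream start. A second match lay 97 to 90 bases before 1 of the 3 starts of SLC1A5, on chromosome 19, minus strand, in the window chr19:46784815-46785064, and the stretch around it is printed here.
SLC1A5: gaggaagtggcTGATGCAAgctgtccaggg
These 2 genes were the only ones of the 8 with a match to TGATGNAA in the searched windows. That is 2 of their 14 windows, against 3.14% of all 35116 windows of this length, and 2 of 8 genes, against 3.89% of all genes searched. The antioxidant element was matched in SLC3A2, SLC7A1 and SLC1A5, that is in 3 of 14 windows, against 10.9% of all windows, and in 3 of 8 genes, against 13.2% of all genes. In SLC3A2 the match began with TGACTCA, the AP-1 site, which overlaps this motif, and it lay 37 to 29 bases before 1 of the 3 starts of the gene (window chr11:62881449-62881698, plus strand).
SLC3A2: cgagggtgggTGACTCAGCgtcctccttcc
The E-box was matched in SLC7A5, SLC1A5 and ALDH18A1, that is in 3 of 14 windows, against 6.34% of all windows, and in 3 of 8 genes, against 7.73% of all genes. The matches of SLC1A5 and SLC3A2 lay before downstream starts, and the windows before their most upstream starts held 0 matches to the 3 motifs. Which starts these cells use was not measured. The shares per gene also depend on the number of windows, which was 14 for these 8 genes and 35116 for all 27305 genes searched. A match describes letters in a window and not binding, and sites outside these windows were not searched.

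The arrays fall into 2 sets. Replicate 1 of both groups (array set 1, 1 pair) had medians of 5.80 and 5.85, and replicates 2 to 4 (array set 2, 3 pairs) had medians between 6.99 and 7.04. The sets were therefore a block in the fit, levels are compared only within a set, and whether the sets differ in culture or in processing was not stated in the labels. CDK9 mRNA, the check of the labels, was 7.997, 9.03, 9.09 and 9.04 on the silenced arrays, in order of replicate, and 9.80, 10.86, 10.89 and 10.86 on the control arrays, which left 28.4% of control. Of 9 measured mesenchymal and osteoblast markers, 7 were not dim, and of 8 epithelial, immune and endothelial markers 7 were dim, and 1 dim marker, EPCAM (0.32), rose. EPCAM lost its call with replicate pairs as the block (adjusted p = 0.0841), and its second probe set did not pass (0.09, adjusted p = 0.692). In the mesenchymal and osteoblast list RUNX2 (-0.60), MSX2 (-0.56), COL1A1 (-0.51) and VIM (-0.19) fell and SPP1 (1.497) rose, VIM losing its call with replicate pairs as the block (adjusted p = 0.0808). The list's summed linear signal was 4362 with CDK9 siRNA and 5920 in the control in set 1, and in set 2 it ranged from 12083 to 12541 and from 13152 to 13645, with no overlap. This sum rests mostly on SPARC and VIM (set 2 control means of 12.53 and 12.32 on the log2 scale, with COL1A1 next at 9.89). SPARC itself did not pass (limma, -0.23, adjusted p = 0.178), so the sum does not describe the list gene by gene. The part of these shifts in the gene results was not tested. The summed linear signal of the epithelial, immune and endothelial list was 230 with CDK9 siRNA and 229 in the control in set 1, and it ranged from 476 to 492 and from 469 to 495 in set 2. In bulk RNA a change in the number of cells of a kind and a change in RNA per cell cannot be told apart.

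When CDK9 was silenced, 4 of the 10 genes rose, all of them among the 7 transporters, and 0 of the 3 enzymes passed (1 at an unadjusted p under 0.05). SLC1A4, a transporter of alanine, serine, cysteine and threonine, rose 1.89-fold, SLC7A11, the cystine and glutamate exchanger xCT, rose 1.72-fold, SLC7A1, a carrier of arginine and lysine, rose 1.38-fold, and SLC1A5, the glutamine carrier ASCT2, rose 1.27-fold. The other 6 did not pass and differed by between -0.12 and 0.17 on the log2 scale, and 0 of the 10 fell (0 at an unadjusted p under 0.05). Over all 18417 genes, 14.2% passed, 6.73% upward and 7.47% downward (limma, Benjamini-Hochberg adjusted p under 0.05, array set as a block). The median log2 difference was 0.12 over the 10 genes and -0.00 over all genes. All 4 calls stood with replicate pairs as the block, a fit in which 4.41% of all genes passed upward. None of the 4 passed without a block, where the difference between array sets enters the error and 0 of all genes passed (51 had an unadjusted p under 0.05).

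**Figure D1:**
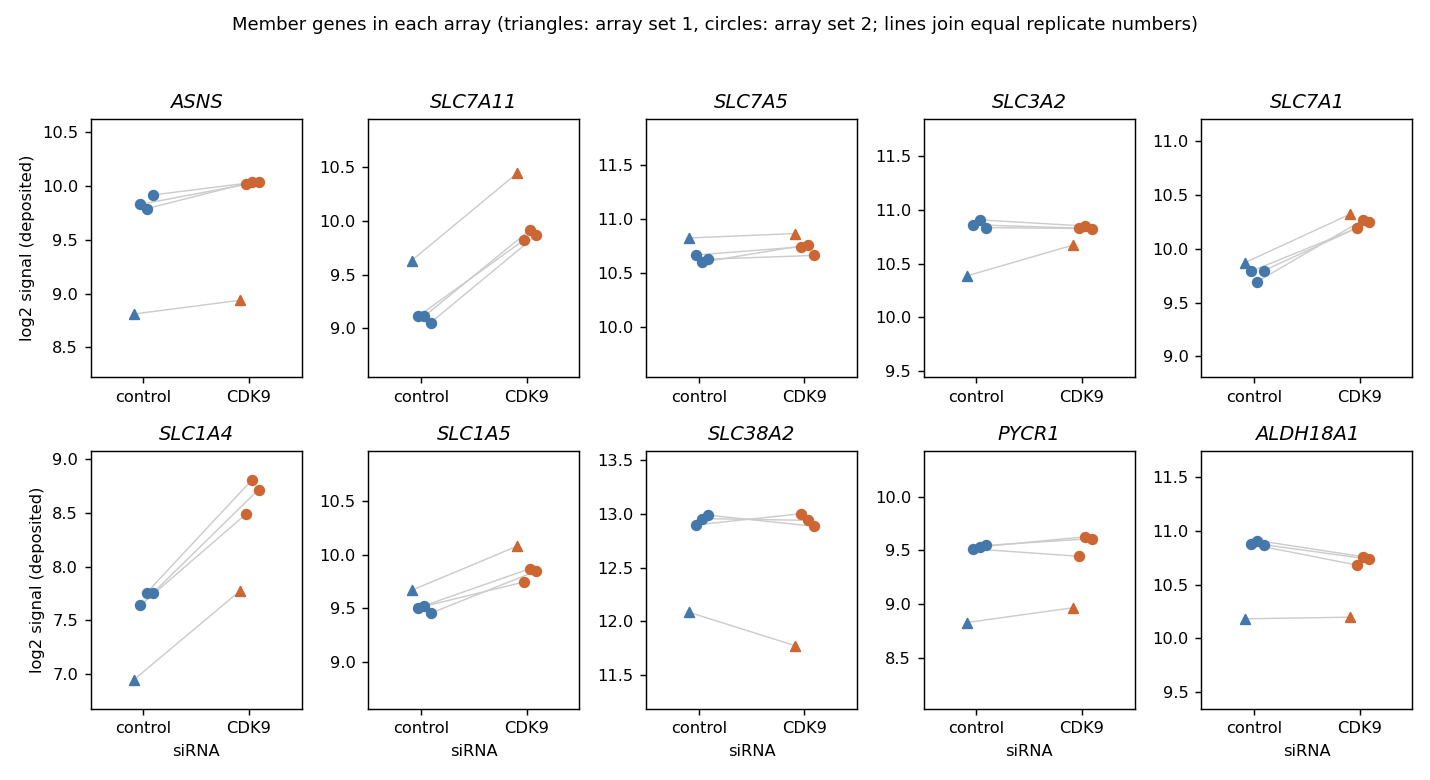
Deposited log2 signal (vertical axis, the same span in every panel) of each gene in the 4 control and the 4 CDK9 siRNA arrays. Triangles are array set 1, circles are array set 2, and grey lines join arrays with the same replicate number. For SLC1A4, SLC7A11, SLC7A1 and SLC1A5 all 4 lines rise, while the SLC3A2 line rises in array set 1 and not in array set 2.

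The small neutral amino acid carrier SLC1A4 (probe set 8042310) had the largest difference of the 10 genes. It read 6.95, 7.64, 7.76 and 7.75 in control replicates 1 to 4 and 7.77, 8.49, 8.81 and 8.71 with CDK9 siRNA. In array set 2 every CDK9 siRNA array lay above every control, and the single pair of set 1 had the same sign. Of all genes, 11.5% met both conditions upward. The fitted log2 difference was 0.92 ± 0.08 (SE, n = 4 per group, adjusted p = 0.000194), a 1.89-fold rise with a 95% interval of 1.68 to 2.13. It ranked 19 from the top among all genes by log2 difference. The replicate pairs differed by 0.82, 0.85, 1.05 and 0.96, and in array set 2 the CDK9 siRNA arrays spread more (8.67 ± 0.16, SD, n = 3) than the controls (7.72 ± 0.07).

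SLC7A11 (probe set 8102800) imports cystine in exchange for glutamate and so feeds glutathione synthesis. Its control arrays read 9.63, 9.11, 9.11 and 9.05 and its CDK9 siRNA arrays 10.44, 9.82, 9.91 and 9.86 in replicates 1 to 4. The groups did not overlap in set 2. The pairs differed by 0.81, 0.71, 0.80 and 0.81, a narrow range, and the fit gave 0.78 ± 0.05 (SE, n = 4 per group, adjusted p = 4.90e-05), or 1.72-fold (95% interval 1.60 to 1.85). Of the 10 genes this was the smallest adjusted p. It ranked 39 from the top by log2 difference. Both arrays of set 1 read higher than their counterparts in set 2, although the medians of set 1 were lower, so levels across the sets carry no order here.

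SLC7A1 (probe set 7970810) encodes CAT-1, a carrier of cationic amino acids that works without a heavy chain partner. It read 9.87, 9.79, 9.70 and 9.80 in controls and 10.32, 10.19, 10.27 and 10.25 with CDK9 siRNA. In set 2 every CDK9 siRNA array lay above every control. SLC7A1 differed by 0.47 ± 0.05 on the log2 scale (SE, n = 4 per group, adjusted p = 0.000543), or 1.38-fold (95% interval 1.28 to 1.49). The pair of set 1 differed by 0.45 and the mean of the 3 pairs of set 2 by 0.47.

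SLC1A5 (probe set 8037835), of the same family as SLC1A4, exchanges glutamine and other neutral amino acids. Controls read 9.67, 9.51, 9.53 and 9.46 and CDK9 siRNA arrays 10.08, 9.75, 9.87 and 9.85. The groups did not overlap within either set. The log2 difference of 0.35 ± 0.05 (SE, n = 4 per group, adjusted p = 0.00292) was a 1.27-fold rise (95% interval 1.17 to 1.38). This gene had a second probe set, 8029854, not chosen by the rule, which did not pass (0.12 ± 0.08 SE, adjusted p = 0.381). With the mean of both probe sets the gene still passed (0.23, adjusted p = 0.0216), but that mean includes the chosen probe set. Both the size of its rise and its call therefore depend on the probe set.

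ASNS, the asparagine synthetase gene whose promoter holds the response element shown above, lay at the edge of the threshold. Its arrays (probe set 8141150) read 8.81, 9.83, 9.79 and 9.92 in controls and 8.94, 10.01, 10.04 and 10.04 with CDK9 siRNA. It was higher in 4 of 4 pairs and the groups did not overlap in set 2. Yet the difference was small, at 0.17 ± 0.05 (SE, n = 4 per group) or 1.13-fold, and did not pass (adjusted p = 0.0504). It passed after each array was centred on its median (adjusted p = 0.0384), with array set 2 alone (0.0429) and in 3 other alternatives, and did not with replicate pairs as the block (0.108). RefSeq lists pseudogenes of ASNS and of SLC7A5, which makes these 2 probe sets less certain.

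The proline pathway did not pass in either of its 2 enzymes listed here. ALDH18A1 makes the intermediate pyrroline-5-carboxylate from glutamate, and PYCR1 reduces that intermediate to proline in mitochondria. ALDH18A1 (probe set 7935230) read 10.18, 10.88, 10.91 and 10.87 in controls and 10.20, 10.68, 10.76 and 10.74 with CDK9 siRNA. The 3 CDK9 siRNA arrays of set 2 lay below the 3 controls while the pair of set 1 differed by 0.01. The fit gave -0.12 ± 0.05 (SE, n = 4 per group, adjusted p = 0.188, 95% interval -0.23 to 0.00). PYCR1 (probe set 8019316) read 8.83, 9.51, 9.53 and 9.55 in controls and 8.97, 9.45, 9.63 and 9.61 with CDK9 siRNA, with overlap in set 2. Its log2 difference was 0.06 ± 0.06 (SE, n = 4 per group, adjusted p = 0.586), and its interval of -0.07 to 0.19 leaves room for a change of up to 1.14-fold.

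SLC38A2 encodes SNAT2, a sodium-coupled carrier of small neutral amino acids that is known to be induced when amino acids are scarce. Its probe set (7962537) read 12.08, 12.90, 12.96 and 12.99 in controls and 11.77, 13.00, 12.94 and 12.88 with CDK9 siRNA. The pair of set 1 was lower by 0.31 with CDK9 siRNA, whereas set 2 overlapped and differed by -0.01. The fit gave -0.08 ± 0.07 (SE, n = 4 per group, adjusted p = 0.487, 95% interval -0.23 to 0.07).

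**Figure D2:**
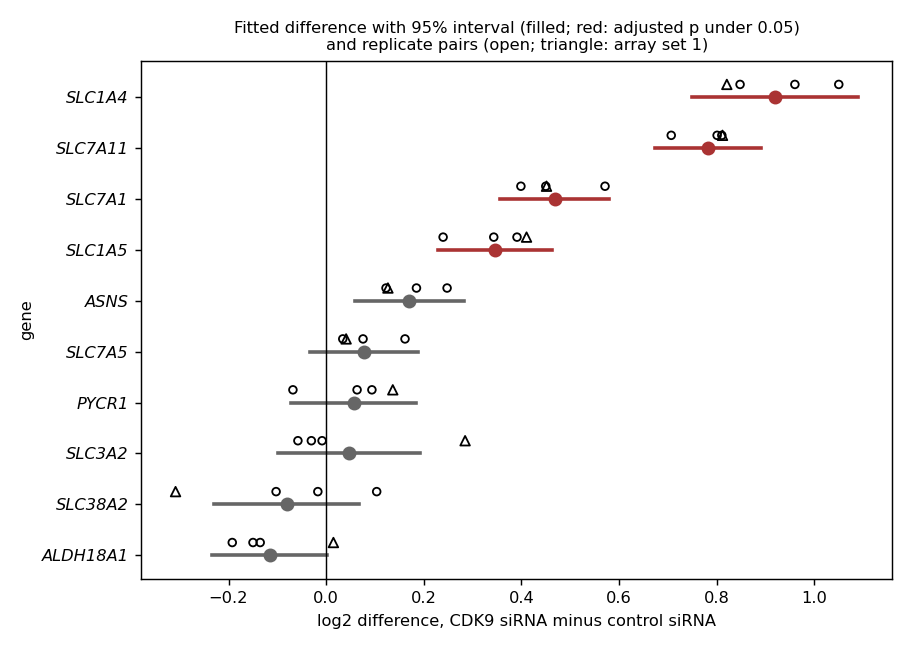
Log2 difference, CDK9 siRNA minus control siRNA (horizontal axis), for the 10 genes in order of size. Filled points are fitted differences with 95% intervals (red where the adjusted p was under 0.05), and open symbols are the 4 replicate pairs (triangle for array set 1). The 4 red genes lie at 0.35 or more with intervals that stay above 0.2, and SLC3A2 and SLC38A2 are the genes whose triangle stands farthest from the circles.

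SLC3A2 and SLC7A5 together form 1 transporter. SLC3A2 encodes 4F2hc, the heavy chain that carries several SLC7 light chains to the cell surface, among them SLC7A5 (LAT1, leucine and other large neutral amino acids) and SLC7A11. SLC3A2 (probe set 7940717) read 10.39, 10.86, 10.91 and 10.83 in controls and 10.67, 10.83, 10.85 and 10.83 with CDK9 siRNA. It was higher by 0.28 in the pair of set 1 and the groups overlapped in set 2 (-0.03), and the fit gave 0.05 ± 0.06 (SE, n = 4 per group, adjusted p = 0.696, 95% interval -0.10 to 0.19). SLC7A5 (probe set 8003298) read 10.83, 10.67, 10.60 and 10.63 in controls and 10.87, 10.74, 10.76 and 10.66 with CDK9 siRNA, higher in 4 of 4 pairs but with overlap in set 2. Its difference of 0.08 ± 0.05 (SE, n = 4 per group) did not pass (adjusted p = 0.348, 95% interval -0.03 to 0.19), so a rise above 1.14-fold lies outside the interval.

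Of the 6 light chains known to pair with SLC3A2, 2 passed the test, against 14.2% of all genes. Differences between light chains were not tested. SLC7A11 and SLC7A6 (y+LAT2, an exchanger of cationic for neutral amino acids) rose, the latter by 0.56 ± 0.06 (SE, n = 4 per group, adjusted p = 0.000552), from 8.63, 9.005, 9.15 and 9.19 in controls to 9.33, 9.64, 9.61 and 9.64. SLC7A5, SLC7A7 (0.15, a dim gene), SLC7A8 (-0.17) and SLC7A10 (0.05) did not pass. Set against SLC3A2 within each array, the log2 ratio of SLC7A11 was higher with CDK9 siRNA by 0.74 (4 of 4 pairs) and that of SLC7A6 by 0.52 (4 of 4 pairs), while that of SLC7A5 differed by 0.03. An exact two-sided permutation test within array sets gave p = 0.05 for SLC7A11, SLC7A6 and SLC7A8 (ratio -0.22, lower in 4 of 4 pairs), the smallest p that its 40 arrangements allow. Adjusted over the 6 light chains, this exact permutation p was 0.1, and it was 0.84 for SLC7A5. These ratios were chosen after the values had been seen, and a ratio shows unequal change between 2 probe sets, not which of them changed.

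**Figure D3:**
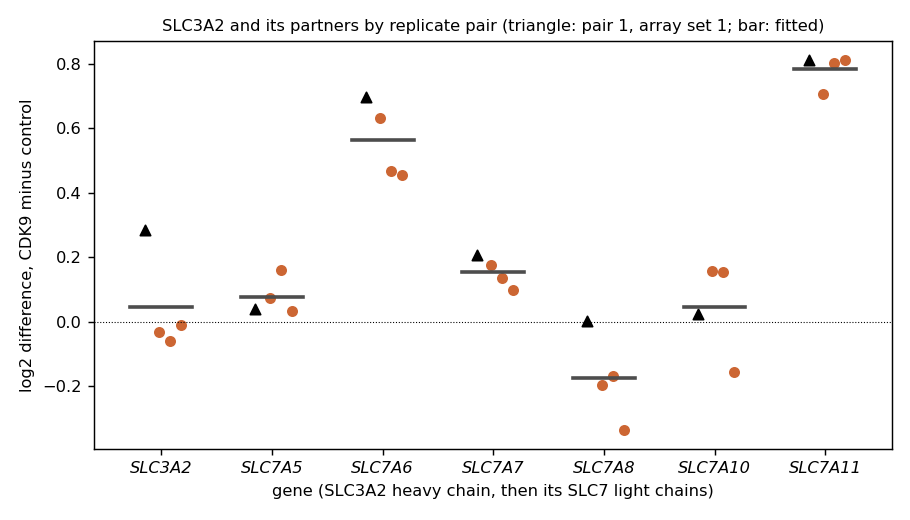
Log2 difference, CDK9 siRNA minus control siRNA (vertical axis), of SLC3A2 and its 6 light chain partners (horizontal axis). Triangles are the pair of array set 1, circles the 3 pairs of array set 2, and bars the fitted difference. SLC7A11 and SLC7A6 lie between 0.46 and 0.81 in every pair, while the circles of SLC3A2 lie just below 0 and its triangle at 0.28.

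In both array sets the 4 genes that rose had the same sign. An interaction of group with array set passed for 0 of the 10 genes (limma, smallest adjusted p = 0.109, SLC3A2; 2 at an unadjusted p under 0.05) and for 2.14% of all genes. With no overlap in set 2 and the same sign in set 1, 5 of the 10 genes were higher (the 4 that passed and ASNS), against 11.5% of all genes, and 0 were lower, against 13.8%. SLC3A2 is the gene whose sign depends on set 1: without it the difference was -0.03.

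The genes with the pattern most like ASNS, by root mean square difference of set-centred log2 values over the 8 arrays, were SNRNP200 (0.02), TALDO1 (0.02) and AFG3L2 (0.02), where the median gene stood 0.14 away. Those most like SLC7A11 were L3HYPDH (0.04), LAMB3 (0.05) and MAP2 (0.05), where the median gene stood 0.40 away. The nearest genes stand closer than the median gene by the way they were picked. Set-centred values mostly carry the size of the group difference, and shared control of these genes was not tested.

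Other amino acid transporters are given beside the shares of all genes, 6.73% upward and 7.47% downward. Of 25 listed and measured, 3 rose, 2 fell and 20 did not pass, with a median log2 difference of 0.08. SLC7A2, the cationic carrier CAT-2 and a relative of SLC7A1, rose 1.97-fold with 4 arrays per group (adjusted p = 0.000194, difference 0.97 ± 0.08 SE on the log2 scale). It went from 7.74, 7.82, 7.72 and 7.83 in controls to 9.04, 8.60, 8.68 and 8.68 with CDK9 siRNA, with no overlap in set 2. SLC7A3, also a cationic carrier related to SLC7A1, is a dim gene and did not pass (limma, 0.18, adjusted p = 0.281). Besides SLC7A6, the glutamine carrier SLC38A1 (SNAT1), of the same family as SLC38A2, rose by 0.40. The glial glutamate carrier gene SLC1A3 fell by 0.43 and the dim gene SLC38A4 by 0.31. SLC1A3 lost its call in array set 2 alone (-0.37, adjusted p = 0.0651) and without replicate 1 or 3 of either group or control replicate 4 (adjusted p up to 0.0667), and SLC38A4 without replicate 2 of either group, CDK9 siRNA replicate 3 or control replicate 4 (up to 0.0729). The 10 genes' share of calls, 4 of 10, and this list's, 5 of 25, were not tested against each other.

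Enzymes of amino acid metabolism other than the 3 above were listed with 18 genes, of which 13 had a probe set with a single gene symbol. Of these 13, 2 rose and 2 fell (median -0.02), against 6.73% and 7.47% of all genes. CTH, which releases cysteine from cystathionine, rose 1.66-fold (0.73 ± 0.08 SE, n = 4 per group, adjusted p = 0.000519), with controls at 6.24, 7.17, 7.32 and 7.34 and CDK9 siRNA arrays at 6.80, 7.94, 8.07 and 8.19. It and SLC7A11 both supply cysteine, by synthesis and by uptake of cystine. GLUL, glutamine synthetase, fell by 0.51 (adjusted p = 0.000873) in 4 of 4 pairs, and its second probe set fell by 0.44. The asparaginase gene ASRGL1 rose by 0.23 and the branched-chain aminotransferase BCAT2 fell by 0.22, and both lost their calls with replicate pairs as the block (adjusted p = 0.0996 and 0.0585) and without single arrays: BCAT2 without replicate 3 of either group or control replicate 4 (up to 0.0666), ASRGL1 without any 1 array of set 2 (up to 0.129). PYCR3, a relative of PYCR1, differed by 0.02.

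Serine, glycine and folate enzymes, a list that includes known ATF4 targets, rose in 6 of 9 cases and fell in 0 (median 0.29). Over all genes 6.73% rose and 7.47% fell. ALDH1L2 (0.58), SHMT2 (0.50), PHGDH (0.37), PSPH (0.32), MTHFD2 (0.29) and SHMT1 (0.27) rose, and PSAT1 (0.09, adjusted p = 0.580) did not pass. A second probe set of PSPH did not pass (0.26, adjusted p = 0.0647), and that of MTHFD2 did (0.30, adjusted p = 0.0068). The list's median reached 0.38 in array set 2 but 0.04 in array set 1, and with replicate pairs as the block PSPH (adjusted p = 0.0520) and SHMT1 (0.106) lost their calls. SHMT1 also lost it without any 1 array of set 2 (adjusted p up to 0.135), and PSPH without any of these but CDK9 siRNA replicate 2 (up to 0.0784). PSAT1 passed in array set 2 alone (0.23, adjusted p = 0.0254). Cytosolic tRNA synthetases, another ATF4-linked class, held 1 gene that rose among 19 measured and 0 that fell, against 6.73% and 7.47% of all genes. Their median was 0.07, and the gene that rose was CARS1 (0.21, adjusted p = 0.0611 with replicate pairs as the block). CARS1 lost its call without CDK9 siRNA replicate 3 or control replicates 2, 3 or 4 (adjusted p up to 0.0668).

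Of 21 regulators and target genes of the integrated stress response, 5 rose and 0 fell, against 6.73% and 7.47% of all genes. Their median was 0.08. ATF4 itself read 11.05, 11.65, 11.68 and 11.70 in controls and 11.26, 11.78, 11.87 and 11.85 with CDK9 siRNA and rose by 0.17 ± 0.05 (SE, n = 4 per group, adjusted p = 0.0421). That call was lost with replicate pairs as the block (adjusted p = 0.0955), with array set 2 alone (0.0571), with quantile normalization (0.0619) and without any 1 of the 8 arrays (up to 0.113). A second ATF4 probe set differed by -0.13 (adjusted p = 0.385), and the mean of the gene's probe sets by 0.02 (adjusted p = 0.862). The lipoprotein receptor gene VLDLR (0.52), DDIT3, which encodes CHOP (0.23), the AP-1 repressor JDP2 (0.21) and CEBPG, a partner of ATF4 (0.20), also rose. Of these, VLDLR kept its call with replicate pairs as the block (adjusted p = 0.0110), and DDIT3 (0.0668), JDP2 (0.0789) and CEBPG (0.0620) did not. Leaving out 1 array ended the call of DDIT3 for every array but CDK9 siRNA replicate 3 (adjusted p up to 0.097), of JDP2 for every array of set 2 but CDK9 siRNA replicate 4 (up to 0.118), and of CEBPG for replicate 3 of either group and control replicate 4 (up to 0.0701). TRIB3 (0.12, adjusted p = 0.178) and CHAC1 (0.14, adjusted p = 0.284), 2 widely used ATF4 and CHOP targets, did not pass.

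SLC7A11 is also a target of NRF2, the oxidative stress factor encoded by NFE2L2. NFE2L2 read 8.66, 9.98, 10.00 and 9.92 in controls and 9.24, 10.38, 10.39 and 10.40 with CDK9 siRNA and rose by 0.46 ± 0.05 (SE, n = 4 per group, adjusted p = 0.000676). Of 8 measured NRF2-linked genes, a list that includes NFE2L2 itself, 5 rose and 1 fell, against 6.73% and 7.47% of all genes. Besides NFE2L2, SRXN1 (0.38), TXNRD1 (0.36), NQO1 (0.34) and the glutathione synthesis subunit GCLM (0.29) were up and HMOX1 (-0.94) was down. GCLC (0.07) and KEAP1 (-0.06) did not pass. GCLM lost its call in array set 2 alone (0.24, adjusted p = 0.0555) and without replicate 1 of either group, CDK9 siRNA replicate 3 or control replicate 4 (up to 0.0714). Which of the 2 factors, if either, moves SLC7A11 here was not tested.

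Of 19 measured genes that report amino acid supply to the kinase mTORC1, 4 were lower and 1 higher (median -0.05). The shares of all genes were 7.47% and 6.73%. The GATOR1 subunit NPRL3 (-0.32), FNIP2 (-0.37), the GTPase RRAGB (-0.30) and the arginine sensor CASTOR1 (-0.26) fell, and the sestrin gene SESN3 (0.31) rose. CASTOR1 lost its call by a narrow margin with replicate pairs as the block (adjusted p = 0.05003).

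**Figure D4:**
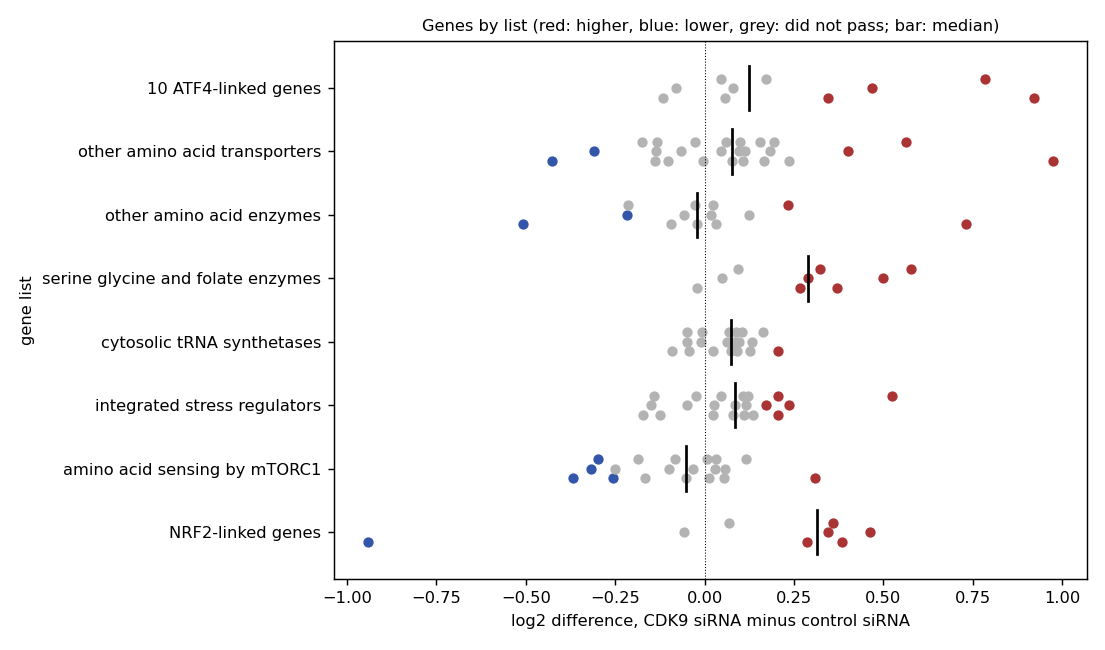
Log2 difference, CDK9 siRNA minus control siRNA (horizontal axis), of each measured gene in the 10 ATF4-linked genes and the 7 lists beside them (vertical axis). Red genes were higher and blue genes lower at an adjusted p under 0.05, grey genes did not pass, and black bars are medians. The 10 genes split into 4 red points from 0.35 to 0.92 and 6 grey points between -0.12 and 0.17, and the serine, glycine and folate list and the NRF2-linked list have the highest medians (0.29 and 0.31).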

How the data were processed

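The authors deposited log2 probe set values of 33297 probe sets for 8 arrays. The submitters' processing notes name hg19, limma, RMA and version 1.1 of Affymetrix Expression Console, in no stated order. Which arrays were normalized together is not stated there or in the labels. The design text calls the replicates biological, and 0 pairs of arrays held mostly identical values. By the platform annotation 19460 probe sets had 1 symbol, 1754 had several and 12083 had none, and Entrez matches to RefSeq (19429) changed 0 symbols. The highest-mean probe set of each gene was kept, leaving 18417 genes. The number of arrays limits the precision.

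The test was two-sided, by lmFit and eBayes of limma 3.58.1 (R 4.3.3), with p-values adjusted over all genes by Benjamini-Hochberg, a threshold of 0.05 and array set as a block, as the rule for these genes states. The script was tested on simulated data. Lists are described by counts and medians, with no list test. Plots were drawn with matplotlib 3.10.9, and tables made with pandas 2.3.3 and numpy 2.4.6, under Python 3.11.15. The 10 genes and the lists were chosen with earlier results of these data known. Named genes were the 10, up to 6 called genes with the smallest adjusted p in each list, 6 regulators or targets fixed by name (ATF4, DDIT3, TRIB3, CHAC1, NFE2L2, PSAT1), CDK9, and the 3 nearest genes to ASNS and SLC7A11. PYCR3, SLC7A3 and the light chains of SLC3A2 that did not pass were named after their values had been seen.

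Replicate numbers recur in both groups. Deviations from group means correlated within same-numbered pairs at 0.822, 0.537, 0.494 and 0.607, above the limit of 0.1 for treating the numbers as pairs, although arrays of set 2 with different numbers correlated at 0.405 to 0.561 as well. These deviations still hold the difference between array sets, so passing the limit cannot show that the numbers of set 2 are pairs. Alternatives were no block, replicate block, array set 2 alone, 2 other scalings, a filter on dim genes, the mean of a gene's probe sets, a trended robust fit and each array left out in turn.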

Additional observations from a re-analysis of the deposited data

Results flagged for a closer look

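In 4 of the 92 groups of 4 arrays examined (46 named genes, both groups, values centred within array sets), 1 array stood apart from the other 3 by more than Dixon's 95% limit on the gap divided by the group's range. For 4 independent values chance gives about 1 in 20 such groups, a rate that need not hold after this centring. For SLC3A2 the CDK9 siRNA array of replicate 1 stood highest (0.863). Centring places the single arrays of set 1 equally far above and below their mean. This flag therefore reflects the difference of that pair and cannot tell which of its arrays stood apart. For PYCR1 the CDK9 siRNA array of replicate 2 stood lowest (0.906). Outside the 10 genes, control replicate 2 of SLC1A3 (0.983) and CDK9 siRNA replicate 3 of NQO1 (0.860) stood apart.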

How the results depend on the processing

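Without a block the count of the 10 genes called higher went from 4 to 0, and counts over all genes went from 1239 higher and 1376 lower to 0 and 0, because the difference between array sets enters the error. In that limma fit the log2 differences are the same by construction, and 2 of the 10 genes and 51 of all genes had an unadjusted p under 0.05. Under the replicate block, which pairs same-numbered arrays, all 10 genes kept their side of the threshold, with 4 called higher, while 813 genes were higher and 875 lower over all genes. With each array left out in turn, the 10 genes gave 4 or 5 called higher and 0 lower in every case, and all genes gave 714 to 1753 higher and 806 to 1578 lower (the lowest without control replicate 3, the highest without either replicate 1). SLC1A4, SLC7A11, SLC7A1 and SLC1A5 passed in all 8 of these fits and in the 7 other alternatives besides the fit without a block, at log2 differences of 0.87 to 0.98, 0.77 to 0.80, 0.44 to 0.49 and 0.23 to 0.38. SLC3A2 changed sign in array set 2 alone and without replicate 1 of either group (-0.032, adjusted p = 0.672), and its differences with 1 array left out ran from -0.032 to 0.075. ASNS passed in 5 of those 7 alternatives and in 2 of the 8 fits with an array left out (adjusted p 0.0126 to 0.163 over all of them). The other 5 genes passed in none. For every gene, leaving out replicate 1 of either group repeats the fit of array set 2 alone, so these fits are not separate. Both ASNS passes with an array left out are of this kind. Taking the mean of probe sets alters the difference of SLC1A5 alone among the 10 genes, since the others have a single probe set. The second probe set of SLC1A5, taken by itself, did not pass (limma, 0.12, adjusted p = 0.381). Among the 36 other named genes, 10 lost their call under the replicate block. The median difference of all genes moved from -0.00 to 0.02 with arrays centred on their medians. Signal over background could not be assessed, since no background values were used here.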
